A study of Homo sapiens with 18 samples.

Results

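The genes described here encode the subunits, assembly chaperones, activators and inhibitor of the proteasome. They were chosen by symbol alone, as protein-coding genes whose symbol starts with PSMA, PSMB, PSMC, PSMD, PSME or PSMG followed by a number, together with PSMF1. The rule holds 48 genes in the RefSeq gene table, of which 47 had a gene ID among the 23604 rows of the RNA-Seq tables. PSMA8, a testis form of an alpha subunit, was not analysed here. A filter on low counts kept 46 of the 47 for testing and removed PSMB11, the thymic beta subunit, whose level was between 0 and 0.14 FPKM (fragments per kilobase of transcript, scaled to the library total).

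The cells were MCF10A-ErSrc, a non-tumour human breast epithelial line that carries the v-Src kinase joined to the ligand-binding part of the oestrogen receptor, so that tamoxifen switches the kinase on. All groups carried this fusion. NT cells were not treated with tamoxifen and received DMSO for 4 h, and NT + TPL cells received triptolide (TPL, TPL-125nM in the labels) for 4 h in its place. TAM cells were transformed with tamoxifen and received DMSO for 4 h, and TAM + TPL cells were transformed and received the same TPL dose for 4 h. TPL is a small molecule that binds XPB, a subunit of the general transcription factor TFIIH, and lowers transcription by RNA polymerase II (RNAPII). RNA-Seq was made from 2 biological replicates per group, and RNAPII ChIP-Seq gave 1 list of peaks per group.

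The proteasome degrades proteins tagged with ubiquitin. Its core particle is a stack of rings of alpha and beta subunits, in which some beta subunits carry the proteolytic sites, and chaperones pair with alpha subunits while the core is built. A regulatory particle caps the core, recognises ubiquitin, removes it and unfolds the substrate with a ring of ATPases. Other activators can take the place of that cap. Interferon exchanges the catalytic beta subunits for immune forms, and the transcription factor NFE2L1 raises most subunit genes when proteasome activity is short.

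Total expected counts were between 7461309 and 8349448 per library, and the 47 genes together took between 0.316 and 0.396% of them. Of 8 markers of basal and luminal breast epithelium, 7 were at 1 FPKM or more in every library. The exception was TP63, a basal transcription factor, at between 0.28 and 24.2 FPKM. The summed level of the 8 markers was between 16742 and 18495 FPKM in NT cells and between 10323 and 13137 after TPL. In TAM cells it was between 7300 and 7687 FPKM, and after TPL between 3655 and 4005. Of 11 markers of other cell types, CD14 and ESR1 were at 1 FPKM or more in every library, and 6 were below 1 FPKM in every library. PTPRC, COL1A1 and PECAM1 crossed 1 FPKM between libraries, and the fusion holds part of the oestrogen receptor that ESR1 encodes. The summed level of these 11 was between 216 and 263 FPKM in NT cells and between 99 and 156 after TPL. In TAM cells it was between 77 and 104, and after TPL between 46 and 51. Most of this sum was ESR1, with a mean over the libraries of 111.9 FPKM against 126.7 for the sum. Both sums moved with the groups, and their part in the results below was not tested.

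The proteasome genes were well expressed, with a median over the 46 genes of 33.7 FPKM (mean over 8 libraries), against 5.07 FPKM over the 16948 genes tested. The highest was PSMD8, a regulatory particle subunit, at 188.4 and 163.5 FPKM in the NT libraries. It was followed by PSMB4, a structural beta subunit, with a mean of 127.0 FPKM in NT. In NT cells, the 7 alpha subunits lay between 14.4 (PSMA5) and 70.4 FPKM (PSMA4), a 4.87-fold range. The 7 constitutive beta subunits lay between 33.3 (PSMB2) and 127.0 FPKM (PSMB4). The ring of 6 ATPases was between 13.6 (PSMC6) and 57.9 FPKM (PSMC4). Genes whose products are built into the same ring were thus listed at levels several times apart, and the range of the alpha subunits was 6.39-fold in NT + TPL, 6.21-fold in TAM and 8.16-fold in TAM + TPL. FPKM divide by transcript length, so these levels can be set beside each other, as far as the authors' transcript models hold.

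The promoter sequences of 8 genes are shown because the comparisons with TPL turn on them. PSMG1, PSMG2, PSME3 and PSMD7 fell in both cell states, PSMB4, PSME1 and PSME2 rose in NT, and PSMB9 fell in TAM. Windows came from RefSeq on GRCh38.p14 for 41 of the 47 genes, with none for PSMA7, PSMB1, PSMB6, PSMB7, PSMD4 and PSMG3. Each line gives the 100 bases before the RefSeq transcription start, 5′ to 3′ on the strand of the gene. Matches to 7 searched motifs, spelled out after the peaks, are in capitals. RefSeq starts were not matched to the starts used for the peaks.
PSMG1 (chr21:39183452-39183551, minus strand): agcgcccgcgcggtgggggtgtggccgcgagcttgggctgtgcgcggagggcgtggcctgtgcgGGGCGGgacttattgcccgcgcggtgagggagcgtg
PSMG2 (chr18:12658638-12658737, plus strand): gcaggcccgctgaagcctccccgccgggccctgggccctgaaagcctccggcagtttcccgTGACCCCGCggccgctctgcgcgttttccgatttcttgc
PSME3 (chr17:42833297-42833396, plus strand): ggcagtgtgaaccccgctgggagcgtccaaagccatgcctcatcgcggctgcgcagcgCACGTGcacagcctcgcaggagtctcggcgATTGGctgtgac
PSMD7 (chr16:74296714-74296813, plus strand): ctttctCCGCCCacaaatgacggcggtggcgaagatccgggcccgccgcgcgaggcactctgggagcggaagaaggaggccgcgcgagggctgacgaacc
PSMB4 (chr1:151399473-151399572, plus strand): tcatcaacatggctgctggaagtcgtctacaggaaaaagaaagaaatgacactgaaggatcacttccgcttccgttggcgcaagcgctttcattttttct
PSMB9 (chr6:32854092-32854191, plus strand): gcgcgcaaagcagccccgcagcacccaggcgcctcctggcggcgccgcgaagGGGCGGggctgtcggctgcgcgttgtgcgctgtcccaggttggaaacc
PSME1 (chr14:24136094-24136193, plus strand): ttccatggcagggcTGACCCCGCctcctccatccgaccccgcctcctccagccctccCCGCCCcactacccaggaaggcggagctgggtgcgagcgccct
PSME2 (chr14:24146611-24146710, minus strand): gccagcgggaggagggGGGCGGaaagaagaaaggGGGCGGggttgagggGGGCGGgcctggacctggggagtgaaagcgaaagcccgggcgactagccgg

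In NT cells with TPL, 3 of the 4 chaperones of core assembly fell and 3 of the 7 constitutive beta subunits rose. Of the 4 activators 2 fell and 2 rose, and of the 11 non-ATPase subunits of the regulatory particle 5 fell and 1 rose. At an adjusted p not above 0.05 (edgeR quasi-likelihood test, Benjamini-Hochberg adjustment over 16948 genes), 11 of the 46 genes fell and 7 rose. Over all genes tested, 19.8% fell and 17.2% rose by the same rule, so the counts of 11 and 7 were near the background. A stricter rule asks for an adjusted p not above 0.001 together with a log2 fold change beyond 1.2 in either direction. PSMG1 alone passed it, as a fall, and 0 rose. Over all genes, 2.71% fell and 1.22% rose by the stricter rule. The median log2 fold change was 0.04 over the 46 genes and 0.09 over all genes. Levels are scaled within each library, so a rise or a fall is relative to the other RNAs of that library and does not give the amount per cell. In bulk RNA, fewer cells of a type and less RNA per cell cannot be told apart.

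Among the chaperones of core assembly, PSMG1 and PSMG2 had the largest fitted falls of the 46 genes in NT, ahead of the activator PSME3, which fell more than both when NT + TPL replicate 1 was left out (-1.54, against -1.39 and -1.33). PSMG1, which pairs with PSMG2 to gather the alpha ring, was at 46.2 and 42.4 FPKM in the NT libraries and at 17.5 and 16.6 in NT + TPL. It was at 57.9 and 57.3 FPKM in TAM and at 20.8 and 21.8 in TAM + TPL. All TPL libraries lay below all DMSO libraries. The log2 fold change was -1.41 (SE 0.13, adjusted p = 0.000638 by edgeR) in NT and -1.51 (SE 0.13, adjusted p = 0.00056) in TAM, a 2.65-fold and a 2.85-fold fall. PSMG2 was at 32.0 and 29.7 FPKM in NT cells and at 13.0 and 12.4 after TPL, and in TAM cells at 37.3 and 43.96 and after TPL at 12.4 and 15.3. Again the treated and control libraries did not overlap, and the log2 fold change was -1.33 (SE 0.18, edgeR adjusted p = 0.002) in NT and -1.57 (SE 0.18, adjusted p = 0.00125) in TAM. PSMG3, of the second chaperone pair, fell in NT from a range of 13.5 to 13.7 FPKM to a range of 6.12 to 8.12 (log2 fold change -0.88, SE 0.24, edgeR adjusted p = 0.0273). The call was lost with upper quartile scaling (-0.66) and without NT replicate 1 (-0.95), NT replicate 2 (-0.83) or NT + TPL replicate 1 (-0.67). In TAM its libraries lay at 16.8 and 20.5 FPKM, against 9.77 and 13.6 with TPL, and the log2 difference of -0.58 (SE 0.23, adjusted p = 0.0995) did not pass. Its partner PSMG4 was at 12.3 and 11.1 FPKM in NT and at 8.97 and 15.4 in NT + TPL, which overlap. An RNA antisense to PSMG3 was counted apart from it, at between 6 and 10 reads in the DMSO libraries and between 41 and 89 in the TPL libraries. Whether the counting used strand is not given in the sources used here, so reads of PSMG3 and its antisense partner may not be separate.

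**Figure D1:**
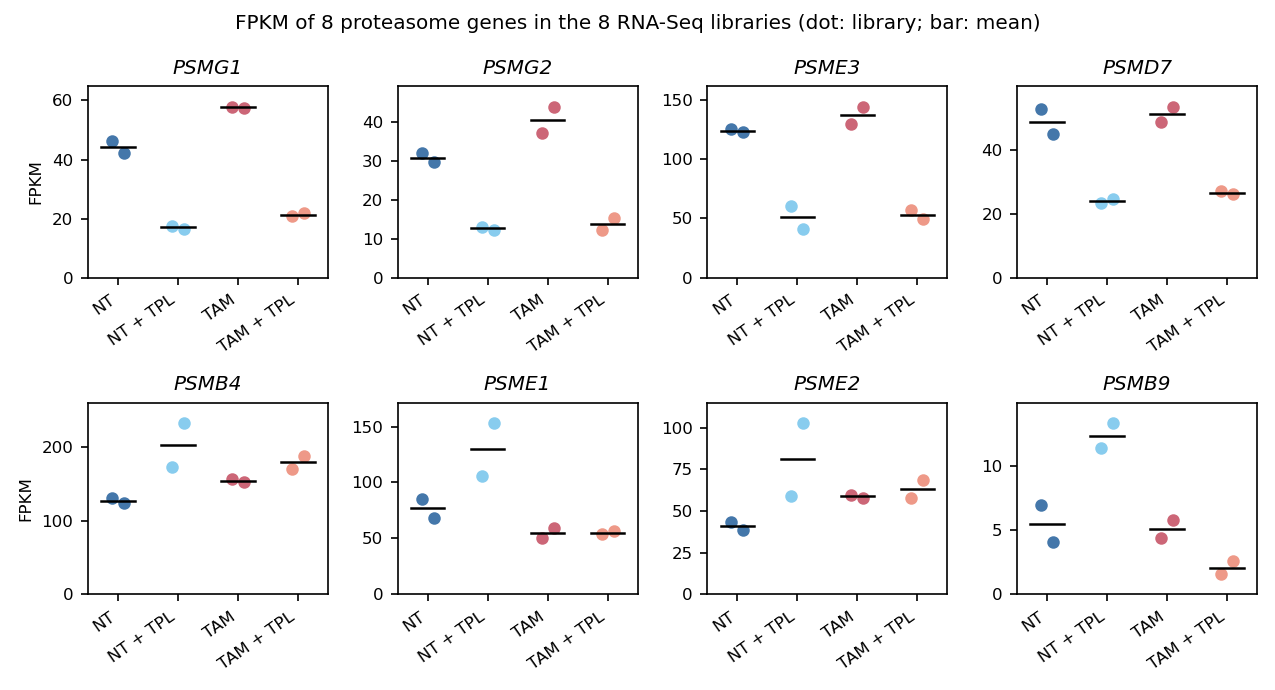
FPKM of 8 proteasome genes (y axis, starting at 0) in the 4 groups (x axis), with 1 dot per library and a bar at the mean of 2. In the upper row PSMG1, PSMG2, PSME3 and PSMD7 lie lower in every TPL library than in every DMSO library, while in the lower row PSMB4, PSME1, PSME2 and PSMB9 lie higher in NT + TPL than in NT, with PSMB9 lowest in TAM + TPL.

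The 4 activators, which open the core in place of the regulatory particle, did not move together. PSME3, the nuclear activator, was at 124.96 and 123.0 FPKM in NT and at 60.6 and 41.4 in NT + TPL. In TAM it was at 129.7 and 144.2 FPKM, and in TAM + TPL at 57.0 and 49.1. The groups were apart in both cell states, with a log2 fold change of -1.29 (SE 0.18, edgeR adjusted p = 0.00258) in NT and -1.41 (SE 0.18, adjusted p = 0.00207) in TAM. PSME4, a large activator known for histone degradation, was at 13.1 and 18.7 FPKM in NT and at 9.48 and 5.83 in NT + TPL, a log2 fold change of -1.07 (SE 0.25, edgeR adjusted p = 0.0176). The call was lost without NT replicate 2 (log2 difference -0.80, adjusted p = 0.101) or NT + TPL replicate 2 (-0.77, adjusted p = 0.0647). In TAM it was at 8.75 and 7.36 FPKM, and at 7.32 and 8.04 with TPL, which overlap. PSME1 and PSME2 form the interferon-inducible activator. PSME1 was at 85.4 and 68.3 FPKM in NT and at 106.1 and 153.2 in NT + TPL, and PSME2 at 43.5 and 38.8 and at 59.3 and 102.9. Both rose in NT, with log2 fold changes of 0.76 (SE 0.23, edgeR adjusted p = 0.0374) for PSME1 and 0.98 (SE 0.28, adjusted p = 0.0312) for PSME2. In TAM, PSME1 was at 50.7 and 59.7 FPKM and at 54.0 and 56.5 with TPL, and the log2 difference was -0.05 (SE 0.23). PSME2 was at 59.5 and 58.1 FPKM in TAM and at 57.6 and 68.9 with TPL, a log2 difference of 0.06 (SE 0.27). The inhibitor of the core, PSMF1, was at 50.6 and 47.8 FPKM in NT and 52.4 and 40.1 in NT + TPL, and in TAM cells at 44.2 and 49.0 and after TPL at 41.6 and 37.8. It passed in neither state, with log2 differences of -0.10 in NT and -0.28 in TAM.

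Within the regulatory particle, 5 of 11 non-ATPase subunits fell in NT and 1 rose, beside 19.8% and 17.2% of all genes. PSMD7, the partner of the deubiquitinase PSMD14, was at 52.6 and 44.9 FPKM in NT cells and at 23.4 and 24.6 after TPL, and in TAM cells at 48.6 and 53.5 and after TPL at 27.1 and 26.1. It had the largest fall of the particle, with a log2 fold change of -1.03 (SE 0.15, edgeR adjusted p = 0.00262) in NT and -0.99 (SE 0.15, adjusted p = 0.00322) in TAM. PSMD1, a scaffold subunit, and PSMD11 and PSMD12, of the lid, fell in both states, by log2 fold changes of between -0.80 and -0.56. In TAM these 3 calls were lost without TAM replicate 2, TAM + TPL replicate 1 or TAM + TPL replicate 2, and that of PSMD12 also without TAM replicate 1, and in NT that of PSMD12 was lost without NT replicate 2. PSMD14 itself fell in NT by 0.52 on the log2 scale (SE 0.17, edgeR adjusted p = 0.0499), a call that was lost when any of the 8 libraries was left out. In TAM its log2 difference was -0.37 (SE 0.17, adjusted p = 0.135). PSMD4, a ubiquitin receptor, was the subunit that rose, from 36.6 and 34.0 FPKM in NT to 50.5 and 54.9 in NT + TPL, a log2 fold change of 0.57 (SE 0.16, edgeR adjusted p = 0.0296). In TAM it was at 49.6 and 49.3 FPKM and at 46.1 and 58.9 with TPL, a log2 difference of 0.04 (SE 0.16). Of the 6 ATPases, 0 passed in NT in edgeR, and 1 had an unadjusted p under 0.05, PSMC6, at 13.7 and 13.6 FPKM in NT and 10.1 and 9.28 in NT + TPL. In TAM, PSMC6 went from 14.6 and 15.7 FPKM to 9.22 and 11.8, a log2 fold change of -0.57 (SE 0.18, edgeR adjusted p = 0.0494). Of the 3 chaperones of the regulatory particle, PSMD5 fell in both states, by 0.51 on the log2 scale in NT and by 0.79 in TAM. The call in NT was lost without NT replicate 1, NT replicate 2 or NT + TPL replicate 2.

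The 7 constitutive beta subunits had positive fitted differences with TPL in both states, with a median log2 fold change of 0.53 in NT and 0.13 in TAM. With GAPDH as the reference, 6 of the 7 were positive in NT and 4 in TAM, with medians of 0.20 and 0.014. In NT, PSMB1, PSMB4 and PSMB6 passed. PSMB4 was at 130.9 and 123.2 FPKM in NT and at 173.2 and 232.4 in NT + TPL, a log2 fold change of 0.67 (SE 0.18, edgeR adjusted p = 0.0266). PSMB6, the caspase-like site, was at 50.2 and 43.5 FPKM and at 61.6 and 77.7 with TPL, which gave a log2 fold change of 0.57 (SE 0.18, edgeR adjusted p = 0.0417). The other catalytic subunits did not pass. PSMB5, the chymotrypsin-like site, had a log2 difference of 0.52 (SE 0.19, adjusted p = 0.0652) and PSMB7, the trypsin-like site, one of 0.42 (SE 0.17, adjusted p = 0.0897). In TAM, 0 of the 7 passed in edgeR or in DESeq2, and 0 had an unadjusted p under 0.05. The largest difference there was that of PSMB1, at 0.48, and those of PSMB5, PSMB6 and PSMB7 were 0.13, 0.04 and 0.01. The alpha subunits had a median of -0.0063 in NT and -0.15 in TAM, or of 0.21 and 0.089 with upper quartile scaling, and the only one to pass was PSMA4 in TAM. PSMA4 went from 83.1 and 98.7 FPKM to 60.1 and 64.3, a log2 fold change of -0.58 (SE 0.18, edgeR adjusted p = 0.0462).

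The immune beta subunits were low beside their constitutive counterparts. PSMB8 was 28.03 and 28.9% of the sum of PSMB8 and PSMB5, in FPKM, in NT cells and 30.5 and 32.2% after TPL, and in TAM cells 30.4 and 25.8% and after TPL 29.9 and 27.5%. PSMB9 was 12.1 and 8.56% of the sum of PSMB9 and PSMB6 in NT cells and 15.6 and 14.6% after TPL, and in TAM cells 7.76 and 10.01% and after TPL 2.85 and 4.29%. PSMB10 was between 11.5 and 14.2% of its sum with PSMB7 in the 4 NT and NT + TPL libraries and between 5.53 and 7.54% in the 4 TAM and TAM + TPL libraries. In FPKM, PSMB9 was at 6.93 and 4.07 in NT and at 11.4 and 13.3 in NT + TPL, a log2 difference of 1.16 (SE 0.40, edgeR adjusted p = 0.0604) that missed the rule. In TAM it fell, from 4.41 and 5.81 to 1.55 and 2.61, a log2 fold change of -1.33 (SE 0.42, edgeR adjusted p = 0.0492). The calls of PSMB9, PSMA4 and PSMC6 in TAM were each lost without any one of the TAM and TAM + TPL libraries, and were also lost with upper quartile scaling. PSMB8 was at 15.5 and 13.3 FPKM in NT and at 21.1 and 26.6 in NT + TPL, and rose by 0.72 on the log2 scale (SE 0.19, edgeR adjusted p = 0.0246). In TAM its log2 difference was 0.17 (SE 0.19). PSMB8-AS1, antisense to PSMB8, had between 74.6 and 99.4 reads in the DMSO libraries, 171 and 234 in NT + TPL, and 110.2 and 129 in TAM + TPL, so the PSMB8 values are uncertain where the counting did not use strand. PSMB10 was at 9.47 and 9.37 FPKM in NT cells and at 10.3 and 15.7 after TPL, and in TAM cells at 4.54 and 5.38 and after TPL at 6.4 and 7.09. All TAM and TAM + TPL libraries lay below all NT and NT + TPL libraries, but no comparison of PSMB10 passed.

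**Figure D2:**
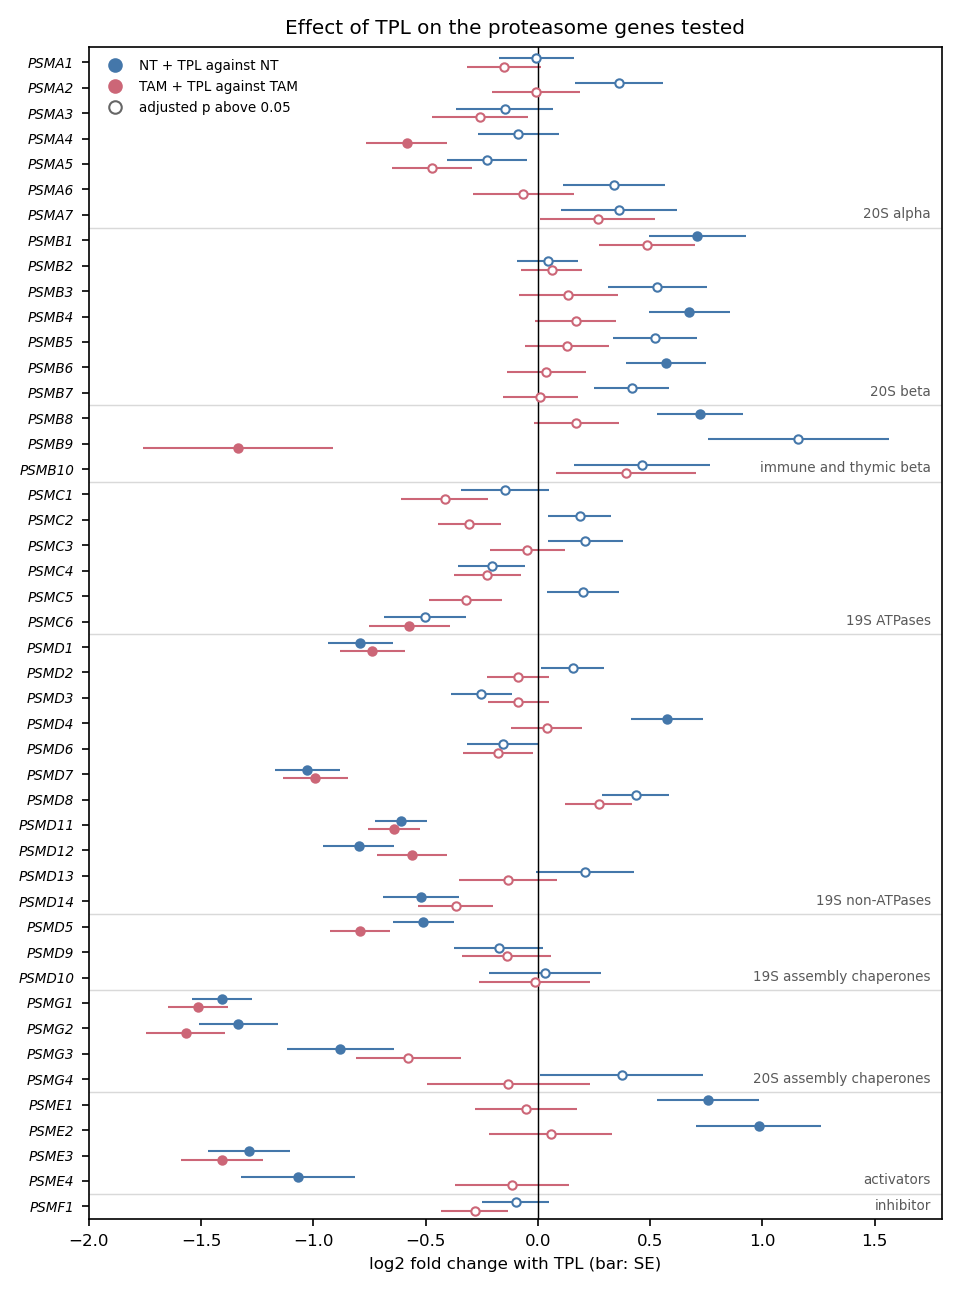
Fitted log2 fold change with TPL (x axis; bar, SE) of the 46 proteasome genes tested, ordered by their place in the complex (y axis), in NT (blue) and in TAM (red). Filled points have an adjusted p of at most 0.05 over all genes; the falls of PSMG1, PSMG2, PSME3, PSMD7, PSMD1, PSMD11, PSMD12 and PSMD5 are filled in both colours, and the 7 rises are filled in blue alone.

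The rises in NT rested on single libraries and on the scaling. With TMM scaling 7 genes rose and 11 fell, and with upper quartile scaling 12 rose and 8 fell. With GAPDH as the reference 0 rose and 14 fell, although the fitted difference of each of the 7 that rose with TMM stayed positive. The median log2 fold change over all genes was 0.09, 0.31 and -0.26 in that order, so the scaling moved all genes and not these alone. Shares of all genes called are given here for TMM scaling only. Without NT replicate 1, NT replicate 2 or NT + TPL replicate 2, 0 rose, and without NT + TPL replicate 1, 11 rose. Without TAM replicate 1 or TAM replicate 2, which enter through the shared spread, 1 rose, and without TAM + TPL replicate 1 or replicate 2, 4 did. A fit of the NT and NT + TPL libraries alone gave 0 rises and 6 falls, and without NT replicate 2 the falls were also 6. A group left with 1 library is assumed to vary like the others. In NT + TPL, 32 of the 46 genes were higher in replicate 2 than in replicate 1. The median difference was 0.21 on the log2(FPKM + 1) scale, against -0.04 over all genes. Such shifts were not particular to NT + TPL. In NT 8 of the 46 were higher in replicate 2, in TAM 33 and in TAM + TPL 35. The medians were -0.15, 0.11 and 0.13, against 0.0, 0.0 and 0.005 over all genes.

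These differences moved with transcript length. The 7 genes that rose had transcripts of between 829 and 1332 bases, and the 11 that fell of between 1070 and 7101 bases with a median of 3231. Across the 46 genes, Spearman's correlation between length and the log2 fold change in NT was -0.62, and it was -0.71 between length and the difference between the 2 NT + TPL replicates. Over all 16948 genes, these were -0.16 and -0.24. For the log2 fold change with TPL in TAM the correlation was -0.40, against -0.05 over all genes. For the fitted difference between the TPL effects in TAM and NT it was 0.56, against 0.21. For the replicate difference it was 0.41 in NT, -0.06 in TAM and -0.43 in TAM + TPL, against 0.33, -0.17 and 0.04 over all genes. The points share libraries and are not independent. PSMG1, at 1080 bases, and PSMG2, at 1070, had falls that do not follow this order. The part of length in the rises, in the results of TAM cells and in the difference between the TPL effects was not tested.

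**Figure D3:**
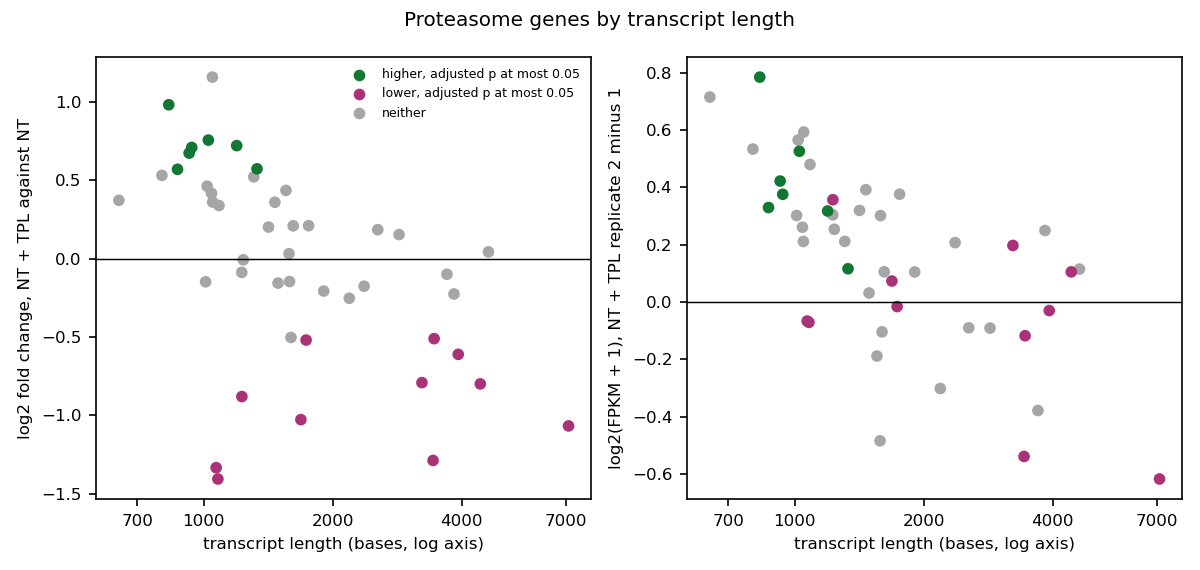
Transcript length (x axis, bases, log scale) of the 46 proteasome genes against the fitted log2 fold change in NT (left) and against the difference between the 2 NT + TPL replicates (right). Green points rose and purple points fell in NT. Spearman's correlation was -0.62 on the left and -0.71 on the right.

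In TAM cells, TPL lowered 11 of the 46 genes and raised 0 at an adjusted p not above 0.05 (edgeR), and 0 rose at an unadjusted p under 0.05. Over all genes, 18.6% fell and 14.3% rose. Under the stricter rule PSMG1 alone passed, as a fall, beside 2.04% of all genes that fell and 0.844% that rose. The median log2 fold change was -0.13 over the 46 genes and 0.05 over all. With upper quartile scaling these medians were 0.10 and 0.29, with 2 rises and 7 falls among the 46. DESeq2 called 0 rises and 12 falls among the 46, and its shares over all genes are not given here. Of the 11 genes that fell in NT and the 11 that fell in TAM, 8 were shared, which are PSMD1, PSMD5, PSMD7, PSMD11, PSMD12, PSME3, PSMG1 and PSMG2. The falls numbered 5 without TAM replicate 2, TAM + TPL replicate 1 or TAM + TPL replicate 2, and 7 without TAM replicate 1. In all alternatives, the calls of PSMG1, PSMG2, PSME3 and PSMD7 in both states, of PSMD1 in NT and of PSMD5 in TAM held. The stricter call of PSMG1 in NT was lost when any of the 8 libraries was left out, and in TAM when any NT, TAM or TAM + TPL library was. By library ranges alone, 15 of the 46 genes lay wholly lower and 17 wholly higher with TPL in NT, beside 32.7% and 36.4% of all genes tested. In TAM, 19 lay wholly lower and 8 wholly higher, beside 34.7% and 40.0% of all genes.

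The 2 comparisons of TPL share no library. Across the 46 genes, Spearman's correlation between the fold change in NT and that in TAM was 0.75, and it was also 0.75 over all genes tested. In the test of the difference between the TPL effects, 0 of the 46 genes passed an adjusted p of 0.05 in edgeR, beside 0.0885% of all genes higher and 0.0767% lower. An unadjusted p under 0.05 was given by 6 of the 46 (13%), beside 10.6% of all genes. DESeq2 called 1 gene of the 46, PSMB9 (adjusted p = 0.0139), and its share over all genes is not given here. The fitted difference was negative for 37 of the 46, that is, the log2 fold change with TPL was lower in TAM than in NT. Levels with TPL were not lower throughout, since 24 of the 46 had a positive log2 difference of TAM + TPL against NT + TPL. The median of the difference between the TPL effects was -0.23, against -0.02 over all genes. With GAPDH as the reference that median was 0.01. PSMB9 had the largest, at -2.49 (SE 0.58, unadjusted p = 0.00374 and adjusted p = 0.221 in edgeR's fit). A differing response of PSMB9 to TPL in NT and TAM cells thus rests on the tool, and for PSME1 and PSME2 no difference was called by edgeR or DESeq2.

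Between TAM and NT cells with DMSO, 0 of 46 genes passed an adjusted p of 0.05 in edgeR, where 3.46% of all genes rose and 3.39% fell, and 10 of the 46 (21.7%) had an unadjusted p under 0.05, beside 19.9% of all genes. By the stricter rule, 0.378% of all genes rose and 0.277% fell. DESeq2 called 6 rises and 1 fall among the 46, but the shares over all genes given here are of edgeR and are no background for that count. The smallest adjusted p were those of PSMC2, an ATPase, PSME4 and PSMG1. PSMC2 was at 13.5 and 14.7 FPKM in NT and at 18.8 and 22.3 in TAM, a log2 difference of 0.57 (SE 0.14, adjusted p = 0.0623 by edgeR). PSME4 had a log2 difference of -0.96 (SE 0.25, adjusted p = 0.0772) and PSMG1 one of 0.43 (SE 0.13, adjusted p = 0.113). The fitted difference was positive for 38 of the 46, with a median of 0.22 against -0.03 over all genes, but with GAPDH as the reference the median was -0.25. The TAM libraries lay wholly above the NT libraries for 26 genes and wholly below for 5, beside 24.0% and 28.7% of all genes.

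With TPL in both arms, TAM cells had lower PSMB9 and PSME1 than NT cells, and these 2 genes were the only ones of the 46 to pass at an adjusted p of 0.05. Over all genes 4.21% fell and 2.83% rose, and by the stricter rule, which 0 of the 46 passed in edgeR, 0.236% fell and 0.36% rose. DESeq2 called 2 of the 46 by the stricter rule, and its share over all genes is not given here. In edgeR 7 of the 46 (15.2%) had an unadjusted p under 0.05, beside 21.3% of all genes. The log2 fold change was -2.58 (SE 0.43, edgeR adjusted p = 0.016) for PSMB9 and -1.27 (SE 0.23, adjusted p = 0.0218) for PSME1. That of PSMB9 rests on few reads, 12 and 22 in TAM + TPL against 90 and 104 in NT + TPL. The comparison shares the NT + TPL libraries with that of TPL in NT, in which both genes lay higher. Both calls were lost without TAM + TPL replicate 1 or replicate 2, 1 of the 2 was lost without TAM replicate 1 or replicate 2, and there were 3 without NT + TPL replicate 1.

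Genes that act with the proteasome were taken from a list of 29, chosen with earlier results of these data known. Its counts are thus a description and not a test against all genes. With TPL, 14 fell and 3 rose in NT, and 12 fell and 1 rose in TAM, with median log2 fold changes of -0.53 and -0.50. Over all genes, 19.8% fell and 17.2% rose in NT, and 18.6% fell and 14.3% rose in TAM, with medians of 0.09 and 0.05. By the stricter rule, RAD23B, which shuttles ubiquitinated proteins to the proteasome, was the single call in NT, from 69.3 and 82.3 FPKM to 26.6 and 18.9. UBB encodes a chain of ubiquitin, and its direction held in both states under all 4 other scalings. UBB rose in both, from 375.9 and 312.1 FPKM to 944.2 and 899.3 in NT and from 496.3 and 550.4 to 1089.7 and 861.0 in TAM, with log2 fold changes of 1.42 (SE 0.16, edgeR adjusted p = 0.00104) and 0.91 (SE 0.16, adjusted p = 0.00588). USP14, a deubiquitinase of the regulatory particle, fell from 27 and 29.4 FPKM to 13.5 and 12.3 in NT and from 25.6 and 28.4 to 13.7 and 14.4 in TAM. ADRM1, a ubiquitin receptor, fell by 0.54 on the log2 scale in NT and by 0.77 in TAM. POMP, which completes core assembly, did not pass in either state, nor did SEM1, a small lid subunit, NFE2L1, or DDI2, the protease that processes NFE2L1. NFE2L1 was at 35.4 and 39.9 FPKM in NT and at 66.8 and 35.8 in NT + TPL, which overlap. NFE2L2, a related factor of the oxidative response, fell in TAM by 1.95 on the log2 scale (SE 0.53, edgeR adjusted p = 0.031), and in NT its log2 difference was -1.54 (SE 0.53, adjusted p = 0.0567). Between TAM and NT cells with DMSO, 1 of the 29 passed, UFD1, at 19.7 and 18.9 FPKM in NT and 49.6 and 56.8 in TAM. UFD1 works with the segregase VCP to hand proteins to the proteasome.

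RNAPII peaks covered most proteasome gene starts, with TPL and without. A transcription start site (TSS) of the Ensembl canonical transcript, on build hg19, was counted where it lay inside a listed peak. Of the 46 genes, 43 had such a peak in NT cells and 43 after TPL, and 38 in TAM cells and 43 after TPL, where 46 is the number tested by RNA-Seq. Over 13286 protein-coding genes the shares in that order were 67.6%, 54.2%, 59.7% and 53.1%. Since 43 of the 46 genes were at a mean of 10 FPKM or more, the shares were also taken over 5042 protein-coding genes at that level, a choice made after seeing the data. They were 89.7%, 76.6%, 83.5% and 77.6%, against 41, 42, 37 and 42 of the 43 proteasome genes at that level (95.3%, 97.7%, 86.1% and 97.7%). There is 1 list per condition, with no height and no replicate, so no test was made and a listed peak does not give the amount of RNAPII. The names in the TAM list carry a cutoff of 0.1 where those in the other lists carry 0.02, and 4584 of its 11056 peaks have a name that ends in a letter, so the count of 38 is not comparable with the others.

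Of the 47 genes with a canonical TSS, 38 had a peak in all 4 lists. PSMB3, PSMC3, PSMD10 and PSME2 had one in all but the TAM list, PSMD8 in NT + TPL and TAM + TPL, and PSMB10 in NT alone. In each list without a peak over their canonical TSS, PSMD8 and PSMB10 had one over another annotated TSS of the gene. PSMB8, PSMB9 and PSMB11 had no peak within 1 kb in any list, while PSMB8 and PSMB9 were at 14.4 and 5.50 FPKM in NT. All 11 genes whose RNA fell in NT had a peak in NT and in NT + TPL, and 6 of the 7 whose RNA rose did, PSMB8 being the other. In TAM, 10 of the 11 whose RNA fell had a peak with and without TPL. The remaining gene was PSMB9, which had none. Of the 28 genes that passed in neither direction in NT, 26 had a peak in NT. Among these, 1 gene, PSMB10, had none in NT + TPL. Kept peaks were thus not particular to the genes whose RNA fell. Over 13286 protein-coding genes, 8986 had a peak in NT and 6946 had one in both NT and NT + TPL. The TAM list carries another cutoff, so the counts in TAM are not comparable with those in NT.

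Peak widths were set side by side for NT and NT + TPL, whose lists carry the same cutoff. The lists give no depth or height, so it is not known whether widths in the 2 lists are on the same scale. At PSMG1 the NT peak ran from chr21:40555042 to 40556135 (1094 bases) and the NT + TPL peak from 40555160 to 40555670 (511 bases), around a TSS at 40555377 on the minus strand. At PSMG2 the peaks ran from chr18:12702917 to 12703273 (357 bases) and from 12702435 to 12703285 (851 bases), so the 2 partners, which fell alike, had peaks that changed width in opposite directions. At PSME3, on chr17, they were 1824 and 1426 bases wide, and at PSMB4, on chr1, 821 and 814. Over the 42 proteasome genes with a peak in both lists, the peak was wider with TPL at 30 of them (71.4%), with a median ratio of 1.29. Over 6946 protein-coding genes it was wider at 37.2%, with a median ratio of 0.88, and over the 3800 of them at a mean of 10 FPKM or more at 36.4%, with a median ratio of 0.87. These are 2 lists without replicates, and the difference was not tested. PSMG2 has the start of CEP76 on the other strand 319 bases away. PSMA7, PSMC5, PSMD10, PSMD13, PSME2 and PSME4 also have an opposite start within 1 kb. PSMA1, PSMA2 and PSMD9 have the start of another annotated gene on the same strand, 42, 40 and 19 bases away. A peak at any of these genes can belong to either gene.

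**Figure D4:**
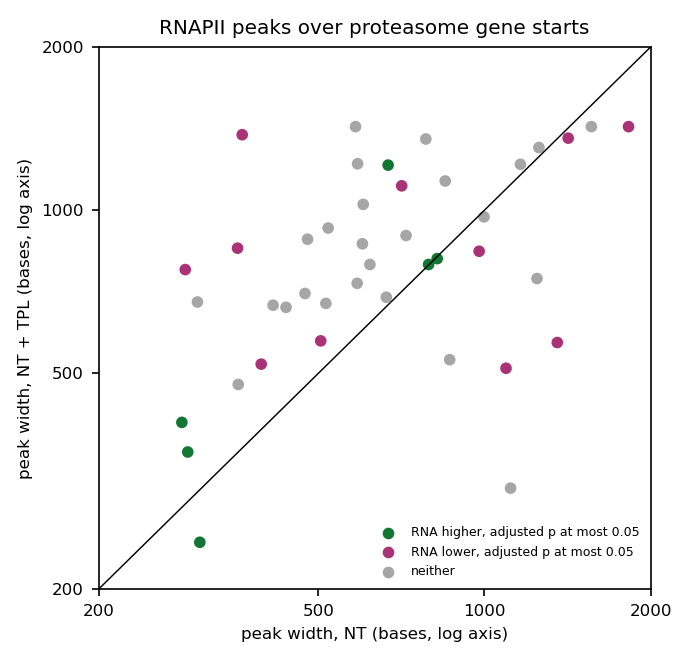
Width of the RNAPII peak over the TSS in NT (x axis) and in NT + TPL (y axis), in bases on log scales, for the 42 proteasome genes with a peak in both lists; the line marks equal width. Points above the line (30 of 42) are wider with TPL, and genes whose RNA rose (green) or fell (purple) lie on both sides of it.

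The windows printed earlier are the inner part of longer promoters. In 250 bases before the start, 7 motifs were searched on both strands: the GC box GGGCGG, the ETS site CCGGAAG, the CCAAT box CCAAT, the core of the antioxidant response element TGACNNNGC, the E box CACGTG, the gamma-activated site TTCNNNGAA and the TATA box TATAAA. Among 112 matches in the 41 windows, 2 pairs of matches to different motifs overlapped. The antioxidant core, the kind of site that NFE2L1 and NFE2L2 bind, was in 11 of 41 windows (26.8%), against 11.5% of 15843 protein-coding promoters. It was in 4 of the 8 genes that fell in both states, PSMD5, PSMD12, PSMG1 and PSMG2, and in 2 of the 4 genes with a window that rose in NT, PSME1 and PSME2. In the PSMG2 window the match ends 31 bases before the RefSeq start, and in that of PSME1 at 78 bases. The PSMG2 window ends at chr18:12658737 on GRCh38.p14, while the start used for its peaks was chr18:12703041 on hg19. Whether these mark the same start was not tested, so the PSMG2 window and its match may not belong to the promoter under the peak. The ETS site was in 9 windows (22.0%, against 11.8%), and the CCAAT box in 18 (43.9%, against 34.5%). The GC box was in 26 (63.4%, against 56.0%), including 3 matches in the printed window of PSME2 and 1 in that of PSMG1. The E box was in 3 (7.32%, against 7.84%), the gamma-activated site in 4 (9.76%, against 6.12%) and the TATA box in 4 (9.76%, against 9.23%). The GC content of the windows had a median of 61.6%, against 62.4% over all promoters, and was lowest at PSMC2 (43.6%) and highest at PSME1 (76.8%). A match is a run of letters and not a shown binding site, and the lists were not tested against each other.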

How the data were processed

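RNA-Seq was made in 8 MCF10A-ErSrc libraries and RNAPII ChIP-Seq gave 4 peak lists. The expected counts were estimated reads per gene that the authors made by aligning reads to reference transcripts with Bowtie2 and running RSEM, and the deposited values are not normalised. FPKM, also deposited, are RSEM values of the same reads and divide by transcript length and library total. The peak lists were made by the authors against input on hg19; the submitters' notes name MACS 1.4.2, and the lists hold no score, height or depth. The files leave out genes without a read, which were set to 0.

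Of 23604 rows, 21077 matched a RefSeq symbol by gene ID and 2384 by accession. PSMD12 and PSMG1 each had a further accession row, with between 0 and 62.5 and between 0 and 16.6 reads, which was summed only as an alternative. For testing, counts were rounded to whole numbers. The main test was the quasi-likelihood test of edgeR 4.0.16 (R 4.3.3), with 1 model of the 4 groups, TMM factors of 0.975 to 1.03, a filter on low counts by group and p-values adjusted by Benjamini-Hochberg. Depth was between 7461309 and 8349448 counts per library. With 2 replicates per group, errors rest on the spread pooled across genes (common dispersion 0.099). Alternatives used DESeq2 1.42.0, other scalings and filters, limma 3.58.1 on log2(FPKM + 1) and log2(FPKM + 0.1), a replicate block, 2-group fits and each library left out. Scripts were tested on simulated data.

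The genes always named were the catalytic, immune and tissue beta subunits, PSMA8, PSMD4, PSMD14, the activators, PSMF1 and 8 partners. Added were, in each comparison, every call of the stricter rule, the 5 largest rises and falls at an adjusted p of 0.05, and the 3 smallest adjusted p where fewer than 3 passed. The other genes named with values were chosen after their values were seen. Members and lists were chosen with earlier results of these data known. TSSs came from GENCODE release 44 on build 37, and promoters from RefSeq on GRCh38.p14. ChIP signal and inputs were not analysed here. Of the partners, 1 gene is not reported here.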

Additional observations from a re-analysis of the deposited data

How the results depend on the processing

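Of the 31 calls of single genes at an adjusted p of 0.05, 0 reversed under any of the 20 alternatives and 10 held under all of them. The peak counts of NT, NT + TPL and TAM + TPL were 44 in place of 43 with any annotated TSS or within 1 kb. In TAM, 42 genes had a peak over any annotated TSS and 44 within 1 kb, in place of 38. A stricter peak threshold could not be tried, since the lists hold no score.

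Calls by the stricter rule with TPL in NT were 3 with DESeq2, with a minimum of 10 counts per library or with rows of a symbol summed, 2 with GAPDH as the reference, and 0 with upper quartile scaling, the replicate block or the 2-group fit. In TAM they were 3 with DESeq2, with at least 10 counts or with summed rows, 2 with limma on either FPKM scale or with no filter, and 0 with GAPDH, upper quartile scaling, the replicate block or the 2-group fit. DESeq2 called 2 genes between TAM and NT with TPL.

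At an adjusted p of 0.05, rises in NT were 12 with DESeq2, upper quartile scaling or at least 10 counts, 4 with the replicate block, and 0 with GAPDH or the 2-group fit, which gave 6 falls. In TAM, upper quartile scaling gave 2 rises and 7 falls. Between TAM and NT, DESeq2 gave 6 rises and 1 fall, and GAPDH, at least 10 counts and summed rows each gave 1 fall. With TPL in both arms, the 2-group fit gave 1 fall. For the difference between the TPL effects, DESeq2 gave 1 gene lower. Shares over all genes are not given here for these alternatives, so the counts have no background beside them.

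GAPDH as the reference moved the median over the 46 genes to -0.32 for TPL in NT, -0.25 for TAM against NT, -0.20 for TAM against NT with TPL and 0.011 for the difference between the TPL effects. It moved the median of all 16948 genes from 0.09 to -0.26 for TPL in NT and from -0.03 to -0.50 for TAM against NT. Upper quartile scaling gave medians of 0.26 over the 46 genes for TPL in NT and 0.10 in TAM, and of 0.31 and 0.29 over all genes. The cause of these moves was not tested.

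With each library left out in turn, calls by the stricter rule were between 0 and 0 for TPL in NT and between 0 and 2 in TAM, and 0 in the other comparisons. At an adjusted p of 0.05, rises in NT were between 0 and 11 and falls between 6 and 10, and falls in TAM between 5 and 9. Between TAM and NT, rises and falls were each between 0 and 1, and with TPL falls were between 0 and 3. The medians were between -0.01 and 0.12 for TPL in NT, -0.22 and -0.05 in TAM, 0.16 and 0.29 for TAM against NT, -0.04 and 0.12 with TPL, and -0.32 and -0.10 for the difference.

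The labels do not say that a replicate number marks a shared day or batch. Deviations of same-numbered libraries had correlations of between -0.135 and 0.0501 over the 6 pairs of groups, so the numbers were not taken to pair the samples, and the replicate block gave 4 rises and 10 falls in NT and 8 falls in TAM.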
